A study of Homo sapiens with 6 samples.

Results

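A set of 8 genes that encode secreted angiogenic factors was followed in HCT116 cells, an established human colon cancer line, after depletion of the chromatin protein ADNP. They were the genes listed in the count table under the symbols ANGPT2, VEGFA, VEGFB, VEGFC, PDGFA, PDGFB, PGF and ANGPTL4, 8 of 23368 gene symbols. The genes were picked by name, with the difference between the groups already known, so their differences are described here and carry no test. One group of cultures was treated with siADNP, the siRNA that targets ADNP, and the other with siControl, and each is represented by 3 libraries. Libraries were made from total RNA, and the labels state neither the duration and dose of the treatment nor the siRNA sequences. The replicates are described as biological, with no word on separate cultures, so p-values measure only the spread between these samples, which may be technical.

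VEGFA, VEGFB, VEGFC and PGF (placental growth factor) belong to the vascular endothelial growth factors, which signal through the receptor kinases FLT1, KDR and FLT4 on endothelial cells, with the neuropilins NRP1 and NRP2 as co-receptors. PDGFA and PDGFB encode the chains that pair into platelet-derived growth factor and act on PDGFRA and PDGFRB, mainly on fibroblasts and pericytes. ANGPT2 (angiopoietin 2) binds the receptor TEK, also called TIE2, and usually opposes angiopoietin 1 there. ANGPTL4 is an angiopoietin-like protein that inhibits lipoprotein lipase and, like VEGFA, is a known target of hypoxia-inducible factors. Carcinoma cells release such factors, and the cells that bear most of the receptors are stromal, so a pure culture of carcinoma cells shows the supply side of this signalling.

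RefSeq promoter windows (GRCh38.p14) were used for 5 of the genes, and none was used for ANGPT2, VEGFA or PDGFB. The lack of a window here does not mean that a gene has no annotated start. To show the promoter letters of genes described below, 1 window is given for each of the 5 genes that had reads. Each window runs from 250 bases before the annotated start up to that start. Capitals mark the GC box GGGCGG, the hypoxia element cores ACGTG and GCGTG, and TATAAA, each on either strand, with overlapping matches merged. Of PDGFA's 4 annotated windows the one shown was chosen for its run of GC boxes, and of PGF's 2 the one farther upstream is shown.
PDGFA, chr7:519847-520096, minus strand: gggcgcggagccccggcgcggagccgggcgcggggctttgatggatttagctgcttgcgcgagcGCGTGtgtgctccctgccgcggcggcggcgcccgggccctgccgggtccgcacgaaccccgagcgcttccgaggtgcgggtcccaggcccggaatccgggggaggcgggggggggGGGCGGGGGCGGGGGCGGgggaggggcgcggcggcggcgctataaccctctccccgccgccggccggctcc
PGF, chr14:74955765-74956014, minus strand: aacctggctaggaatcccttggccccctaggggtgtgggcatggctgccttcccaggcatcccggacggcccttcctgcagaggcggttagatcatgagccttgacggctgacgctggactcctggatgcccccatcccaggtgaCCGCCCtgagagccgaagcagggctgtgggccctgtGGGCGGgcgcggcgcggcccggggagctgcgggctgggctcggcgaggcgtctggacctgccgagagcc
VEGFB, chr11:64234334-64234583, plus strand: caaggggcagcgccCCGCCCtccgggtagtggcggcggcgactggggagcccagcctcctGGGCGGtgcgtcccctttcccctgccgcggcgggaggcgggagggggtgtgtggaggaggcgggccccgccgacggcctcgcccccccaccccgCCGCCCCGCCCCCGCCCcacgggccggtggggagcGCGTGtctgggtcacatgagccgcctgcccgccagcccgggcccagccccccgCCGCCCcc
ANGPTL4, chr19:8363905-8364154, plus strand: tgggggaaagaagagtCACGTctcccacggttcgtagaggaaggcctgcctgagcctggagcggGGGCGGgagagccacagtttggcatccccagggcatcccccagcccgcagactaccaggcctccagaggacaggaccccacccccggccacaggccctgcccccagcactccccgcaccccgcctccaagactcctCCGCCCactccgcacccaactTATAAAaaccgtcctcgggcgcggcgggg
The PDGFA window held 3 GC boxes in 1 unbroken run, the VEGFB window 6, and the PGF and ANGPTL4 windows 2 each. A GC box was present in 42.6% of all 35116 windows of this length in the table. ANGPTL4 alone among these windows carried ACGTG and TATAAA, found in 18.5% and 10.7% of all windows. GCGTG, found in 32.2%, occurred once each in the PDGFA and VEGFB windows. The counts depend on the window: PGF's other window held 3 GC boxes and 1 GCGTG, and PDGFA's other windows held 1 to 5 GC boxes and 0 to 3 GCGTG, so no contrast between these genes is drawn. GC content was 81.6% in the PDGFA window, 70.8% for PGF, 82.8% for VEGFB and 68.8% for ANGPTL4. These matches describe the letters only.

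The knockdown and the identity of the cells were checked first. ADNP stood at 53.9 ± 6.62 CPM with siADNP against 164 ± 8.24 CPM with siControl (SD, n = 3 each), where CPM is reads per 1000000 after TMM scaling of library sizes. Reads assigned to genes numbered 7396771 to 10265175 per library. The epithelial keratins KRT8 and KRT18 lay between 921 and 1339 CPM in every library, while CDX1 and VIL1 of differentiated intestine had 0 reads. CDX2, by contrast, was present at 6.49 to 8.86 CPM over the libraries. Of 6 testable epithelial markers, 5 did not pass and KRT19 was lower with siADNP (log2 fold change -0.15, edgeR adjusted p = 0.0203). Of 10 endothelial markers only ESAM was abundant enough to test; CDH5 and CLDN5 were at 0 in every library, and the summed level of the 10 was 6.12 to 8.81 CPM with siADNP and 5.67 to 8.07 CPM with siControl. The 8 fibroblast and pericyte markers summed to 38.0 to 45.3 CPM and 35.8 to 37.0 CPM, mostly COL1A1, CSPG4 and RGS5, with DCN and LUM at 0. Of 5 blood cell markers, CD68 carried most of the 9.29 to 10.3 CPM and 6.75 to 7.85 CPM, with HBB at 0. The fibroblast and blood sums were higher with siADNP: CSPG4 and CD68 rose (log2 fold changes 0.56 and 0.42, edgeR adjusted p = 0.000126 and 0.0366) and RGS5 fell (-0.39, 0.0325). Their part in the results was not tested.

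ANGPT2 was the member that differed most. It had 52, 31 and 54 reads in the siADNP libraries (6.68, 3.51 and 7.32 CPM) and 159, 163 and 141 reads in the siControl libraries (17.8, 16.0 and 17.0 CPM). The groups were far apart, and siADNP replicate 2 was the lowest library. The mean was 5.84 ± 2.04 CPM against 17.0 ± 0.897 CPM (SD, n = 3 each), and the log2 fold change was -1.56 ± 0.16 (SE), which puts ANGPT2 at 0.339 of the control level. Without siADNP replicate 2 the log2 fold change was -1.27. In bulk RNA, fewer cells that express a gene and less of its RNA per cell cannot be told apart. ANGPT1, the agonist that ANGPT2 opposes, had 2 reads in all with siADNP and 0 with siControl, and ANGPT4 had 0 in both. ANGPT2 lies within MCPH1 on the opposite strand, and 78 of its 6775 annotated exon bases also belong to an MCPH1 exon. MCPH1, a gene of chromosome condensation, stood at 46.2 ± 1.65 CPM with siADNP and 57.6 ± 4.35 CPM with siControl (SD, n = 3 each; log2 fold change -0.32 ± 0.07, edgeR adjusted p = 0.000775). No source used here says whether the counting separated the strands, and the part of MCPH1 transcripts in the ANGPT2 counts was not tested.

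PDGFA was the other member lower with siADNP. Its reads numbered 55, 63 and 49 with siADNP (7.06, 7.14 and 6.64 CPM) and 133, 123 and 106 with siControl (14.9, 12.1 and 12.8 CPM). The siADNP libraries lay close together, well below all siControl libraries. The means were 6.95 ± 0.266 and 13.3 ± 1.47 CPM (SD, n = 3 each), with a log2 fold change of -0.93 ± 0.15 (SE), or 0.526 of the control level. PDGFB, the partner chain, had 42, 60 and 45 reads (5.39, 6.80 and 6.10 CPM) with siADNP and 52, 65 and 36 reads (5.83, 6.39 and 4.34 CPM) with siControl. Its groups overlapped. PDGFB averaged 6.10 ± 0.701 CPM with siADNP and 5.52 ± 1.06 CPM with siControl (SD, n = 3 each), a log2 fold change of 0.13 ± 0.19 (SE). Per kilobase of annotated exon, the ratio of PDGFA to PDGFB was 1.96, 1.57 and 1.63 with siADNP, against 3.83, 2.83 and 4.41 with siControl. PDGFA thus remained the more abundant chain per length in every library, by a narrower margin after ADNP depletion.

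VEGFA, the main mitogen of endothelial cells, had the most reads of the 8 genes. It had 420, 549 and 444 reads with siADNP (53.9, 62.2 and 60.2 CPM) and 406, 565 and 438 reads with siControl (45.5, 55.6 and 52.8 CPM). The groups overlapped, because siADNP replicate 1 fell below siControl replicate 2. The means were 58.8 ± 4.30 and 51.3 ± 5.19 CPM (SD, n = 3 each) and the log2 fold change 0.20 ± 0.07 (SE). VEGFB, whose product binds FLT1 and the neuropilin NRP1, had 148, 146 and 134 reads (19, 16.5 and 18.2 CPM) with siADNP and 133, 123 and 135 reads (14.9, 12.1 and 16.3 CPM) with siControl. The groups did not overlap, but the lowest siADNP and the highest siControl library nearly met. The means were 17.9 ± 1.26 and 14.4 ± 2.13 CPM (SD, n = 3 each) and the log2 fold change was 0.32 ± 0.12 (SE).

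PGF, which binds FLT1, was weakly expressed. It had 39, 45 and 25 reads (5.01, 5.10 and 3.39 CPM) with siADNP and 22, 27 and 27 reads (2.47, 2.66 and 3.26 CPM) with siControl. The groups did not overlap, although siADNP replicate 3 stood just above siControl replicate 3. The log2 fold change was 0.70 ± 0.24 (SE), or 1.63-fold, between means of 4.50 ± 0.961 and 2.79 ± 0.412 CPM (SD, n = 3 each). VEGFC, a growth factor of lymphatic vessels, had 0 reads in all 6 libraries, which allows at most 0.295 to 0.407 CPM per library when a count of 0 is taken to allow 3 reads (counting error only). ANGPTL4 had 29, 38 and 26 reads (3.72, 4.30 and 3.52 CPM) with siADNP and 42, 34 and 29 reads (4.71, 3.34 and 3.50 CPM) with siControl. Its groups overlapped fully and both means were 3.85 CPM (SD 0.405 with siADNP and 0.748 with siControl, n = 3 each), with a log2 fold change of 0.01 ± 0.23 (SE). At 22 to 45 reads, counting error alone is 21.3% to 14.9% of a PGF value, against 4.96% to 4.21% for VEGFA.

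**Figure D1:**
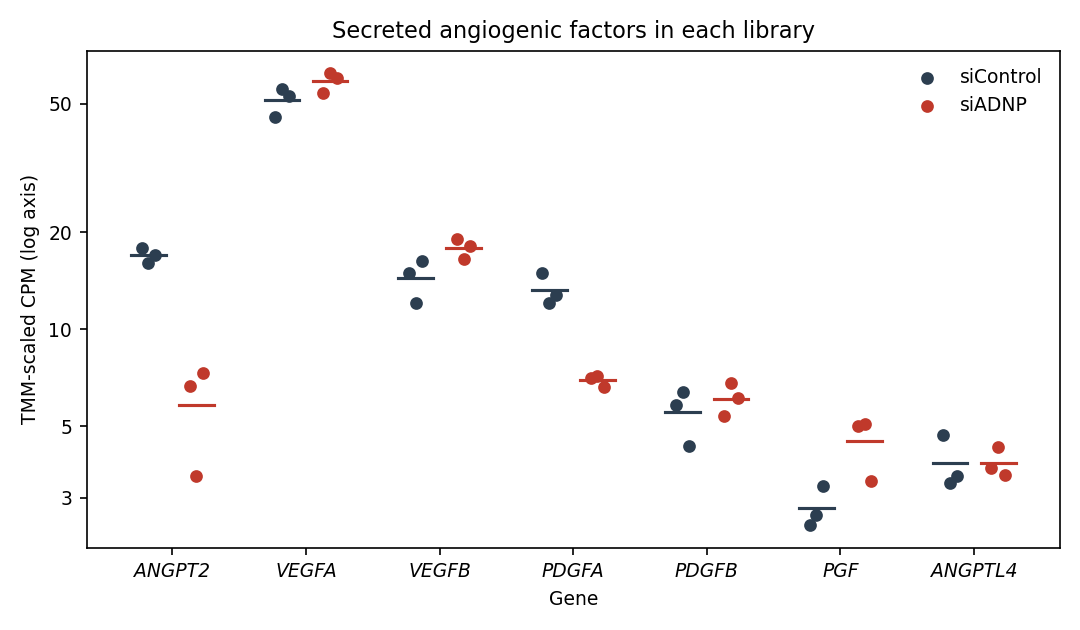
Level of each gene with reads, as TMM-scaled CPM on a log axis, with 1 point per library and a line at each group mean (siControl dark, siADNP red); VEGFC, with 0 reads, is not drawn. ANGPT2 and PDGFA show siADNP points well below the siControl points, with ANGPT2 at 3.51 to 7.32 CPM against 16.0 to 17.8 CPM, while the points of VEGFA, PDGFB and ANGPTL4 overlap.

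Of the 8 genes, 7 had enough reads for the fit over all genes, with 3 called higher (VEGFA, VEGFB, PGF), 2 called lower (ANGPT2, PDGFA) and 2 not passing at an adjusted p under 0.05 in edgeR. Over all 12489 genes tested, 28.3% were called, 14.6% higher and 13.7% lower. The groups did not overlap in 4 of the genes (VEGFB and PGF higher, ANGPT2 and PDGFA lower), and in 40.8% of all genes tested, 20.1% higher and 20.7% lower. ANGPT2 was also among the 0.184% of all genes tested that were called and at least 2-fold lower. Since the genes were picked with this contrast known, nothing is read from these counts. Their median log2 fold change was 0.13, against -0.00128 over all genes tested. DESeq2 called 0 of the genes higher (2 at an unadjusted p under 0.05) and 2 lower, where it called 8.87% and 8.64% of all genes. Leaving out siControl replicate 1 also left 0 called higher (2 at an unadjusted p under 0.05), and leaving out any other library left 1 or 2. The share of all genes called higher was then 11.6% without siControl replicate 1, 11.9% without siControl replicate 2 or 3, and 12.2%, 12.3% and 13% without siADNP replicate 1, 2 and 3. For the lower calls, 2 members in each of these fits, it was 10.6%, 10.3% and 11% without siControl replicate 1, 2 and 3 and 10.7%, 12% and 11.1% without siADNP replicate 1, 2 and 3. In the whole table, median GC content was 54.0% for genes called higher against 43.0% for those called lower. The GC content of the longest annotated transcript was 66.7% for VEGFB, 54.9% for PGF, 54.6% for VEGFA, 52.7% for PDGFA and 38.7% for ANGPT2. With a GC offset in the fit the log2 fold changes were 0.18 for VEGFB, 0.14 for VEGFA, 0.65 for PGF, -0.96 for PDGFA and -1.49 for ANGPT2, and of the higher calls 1, PGF, passed, beside 13.4% of all genes called higher and 12.5% lower. With the replicate block in the fit, 3 members were called higher and 2 lower, beside 13.6% and 12.3% of all genes. With both terms, 0 were called higher (2 at an unadjusted p under 0.05) and 2 lower, beside 12.3% and 11.2%. The sign for ANGPTL4 was not fixed: its log2 fold change was -0.10 with the GC offset, with or without the block, and -0.08, -0.09 and -0.05 without siADNP replicate 2, siControl replicate 2 and siControl replicate 3.

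**Figure D2:**
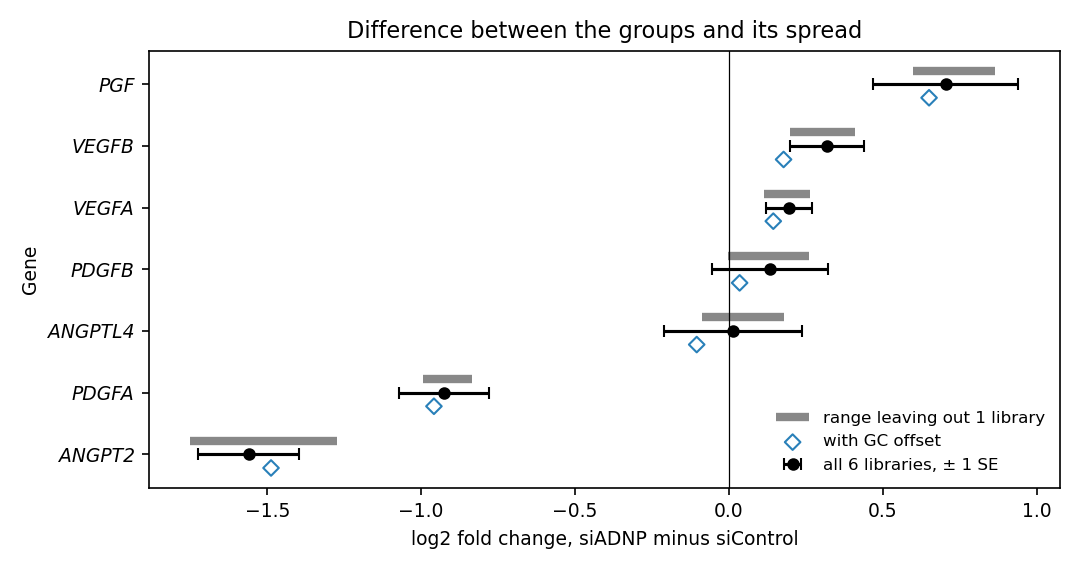
Log2 fold change (siADNP minus siControl) of the 7 genes with reads, as points with bars of 1 SE, with the range over fits that leave out 1 library (grey) and the value with a GC offset (diamonds). ANGPT2 ranged from -1.75 to -1.27 and PDGFA from -0.99 to -0.83 when 1 library was left out, while the ranges of ANGPTL4 (-0.09 to 0.18) and PDGFB (-0.00 to 0.26) reached 0.

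Levels of different genes were compared per kilobase of annotated exon. With siControl the order was VEGFA at 13.6 ± 1.38, VEGFB at 10.5 ± 1.54, PDGFA at 5.59 ± 0.618, ANGPT2 at 2.50 ± 0.132, ANGPTL4 at 2.05 ± 0.398, PDGFB at 1.55 ± 0.299 and PGF at 1.30 ± 0.192 CPM per kb (SD, n = 3). VEGFA and VEGFB lay apart in every siControl library (12.1 to 14.7 and 8.77 to 11.8 CPM per kb), and PDGFA lay apart from ANGPT2. The ranges of ANGPT2 and ANGPTL4 overlapped, as did those of PDGFB with ANGPTL4 and with PGF. With siADNP, ANGPT2 stood last in the order at 0.861 ± 0.301 CPM per kb, below PDGFB at 1.72 ± 0.197, ANGPTL4 at 2.05 ± 0.215, PGF at 2.10 ± 0.449 and PDGFA at 2.93 ± 0.112 (SD, n = 3). ANGPT2 and PDGFA lay apart from the genes between them, whose ranges overlapped. The order depends on the length used. VEGFA's longest annotated transcript, 12.2 kb, lies partly outside the exon set used, which merges to 3.77 kb. Over the longest transcripts, VEGFA came to 4.22 CPM per kb with siControl, below VEGFB at 10.5 and PDGFA at 5.75. The summed CPM of the 8 genes was 103.9 ± 2.68 with siADNP and 108.1 ± 1.89 with siControl (SD, n = 3 each). The sums ran from 100.8 to 105.6 with siADNP and from 106.2 to 110.0 with siControl, without overlap. The make-up is given in another measure, as shares of CPM per kb. Of the summed CPM per kb, ANGPT2 held 2.26% ± 0.801 with siADNP and 6.75% ± 0.297 with siControl, and PDGFA 7.66% ± 0.287 and 15.1% ± 1.61 (SD, n = 3 each). The share of VEGFB was 34.0% ± 2.69 against 28.1% ± 3.27 (SD, n = 3 each). VEGFA held the largest share, 40.8% ± 2.65 against 36.8% ± 4.32 (SD, n = 3 each), with groups that overlapped.

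**Figure D3:**
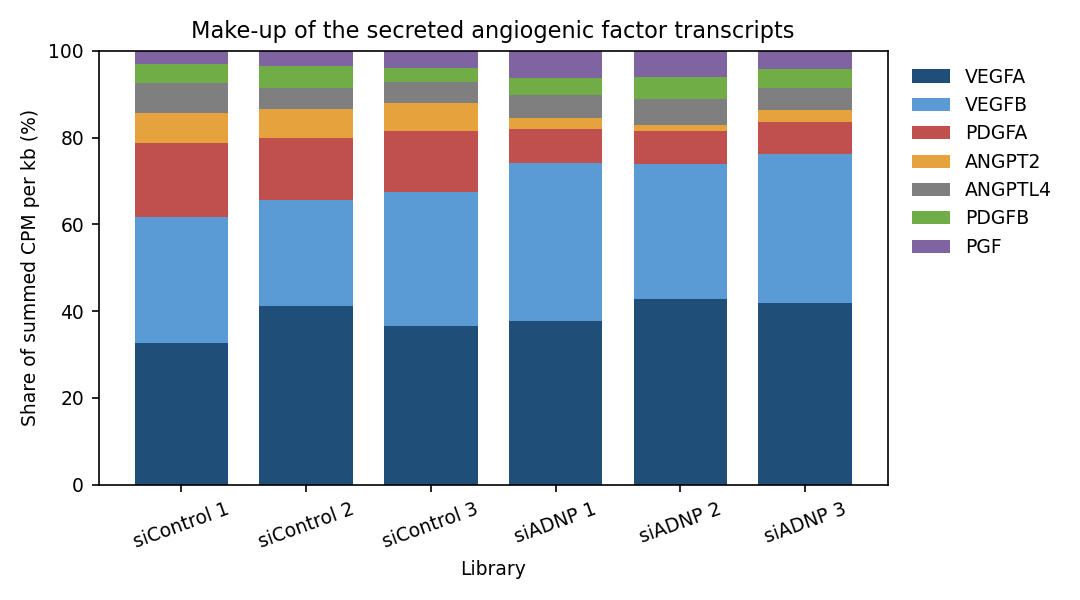
Share of each gene in the summed CPM per kb of the secreted angiogenic factors, in percent, with 1 stacked bar per library; VEGFC is 0 throughout. The ANGPT2 band takes 6.55% to 7.09% with siControl and 1.34% to 2.83% with siADNP, and the PDGFA band 14.1% to 16.9% and 7.33% to 7.85%.

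The receptors of these ligands were mostly not expressed in these cells. PDGFRA had 0 reads in every library. FLT1, KDR, FLT4, PDGFRB, TEK, TIE1 and the phosphatase PTPRB, which acts on TEK, each had at most 15 reads over the 3 libraries of a group and were not tested. NRP1, the exception among VEGF co-receptors, stood at 13.9 ± 0.552 CPM with siADNP and 13.2 ± 0.869 CPM with siControl (SD, n = 3 each) and did not pass (log2 fold change 0.08 ± 0.12, edgeR adjusted p = 0.683). NRP2 rose from 0.989 ± 0.0942 to 2.14 ± 0.601 CPM (SD, n = 3 each; log2 fold change 1.10 ± 0.35, edgeR adjusted p = 0.0174), but did not pass in DESeq2 (adjusted p = 0.117) or without siADNP replicate 1 (0.123), siControl replicate 1 (0.0627) or siControl replicate 2 (0.0539). PDGFRL, a receptor-like protein without a kinase domain, rose from 5.94, 6.39 and 6.15 CPM to 8.73, 8.49 and 12.2 CPM (log2 fold change 0.66 ± 0.17, edgeR adjusted p = 0.00275). Per kilobase of exon, PDGFRL stood at 3.23 CPM with siControl, NRP1 at 1.22 and NRP2 at 0.0962. Of 12 other ligands of the same families, PDGFC alone was testable, at 15.4 ± 1.84 CPM with siADNP and 14.0 ± 1.55 CPM with siControl (SD, n = 3 each; log2 fold change 0.12 ± 0.12, edgeR adjusted p = 0.493). Per kilobase of exon PDGFC stood at 3.70 CPM with siADNP, above PDGFA and PDGFB there. With siControl PDGFC stood at 3.37 CPM per kb, below PDGFA at 5.59 and above PDGFB at 1.55.

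Other genes of the pathway were taken from 8 lists chosen by function. The lists were drawn up with earlier results of these data known, so nothing is read from their counts. Of 124 listed genes, 73 were testable, of which 25 rose, 10 fell and 38 did not pass, against 14.6% rises and 13.7% falls over all genes tested, with a median log2 fold change of 0.06. DESeq2 called 16 higher and 5 lower, beside 8.87% and 8.64% of all genes. The calls of 15 rises and 4 falls held in every alternative.

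Among 11 testable secreted pro-angiogenic factors, 2 rose, 2 fell and 7 did not pass (median log2 fold change 0.12). All tested genes gave 14.6% rises and 13.7% falls. The heparin-binding growth factor midkine, encoded by MDK, rose from 65.9, 73.4 and 74.7 CPM to 129, 125 and 141 CPM (log2 fold change 0.88 ± 0.06, edgeR adjusted p = 7.14e-14). Per kilobase of exon MDK stood at 41.7 CPM with siControl, above every secreted factor described so far. TGFB1, a cytokine with many targets in vessels and stroma, rose from 34.6 ± 1.90 to 73.6 ± 4.93 CPM (SD, n = 3 each; edgeR adjusted p = 1.84e-14). SEMA3C, a secreted ligand of neuropilins and plexins, stood at 26.8, 27.3 and 29.6 CPM against 57.7, 59.0 and 57.6 CPM (log2 fold change -1.06 ± 0.08, edgeR adjusted p = 1.29e-13). CYR61, a matricellular protein, fell with -0.56 ± 0.17 (edgeR adjusted p = 0.010), but did not pass in DESeq2 (0.0678) or without siADNP replicate 2 (0.0747) or siControl replicate 1 (0.116). FGF2, another endothelial mitogen, stood at 20.1 ± 0.543 and 17.1 ± 1.29 CPM (SD, n = 3 each) and did not pass (edgeR adjusted p = 0.0819).

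Secreted inhibitors of angiogenesis gave 6 rises, 1 fall and 1 that did not pass among 8 testable (median log2 fold change 0.51). Over all genes tested, 14.6% rose and 13.7% fell. TIMP2, an inhibitor of matrix metalloproteases, rose from 47.2, 49.2 and 50.8 CPM to 90.9, 103 and 90.2 CPM (log2 fold change 0.95 ± 0.07, edgeR adjusted p = 7.14e-14). Thrombospondin THBS1 and COL18A1, the collagen from which endostatin is cut, rose with log2 fold changes of 0.57 ± 0.13 and 0.43 ± 0.11 (edgeR adjusted p = 0.00109 and 0.00228). The other calls of this list did not pass in DESeq2, which called 3 higher and 0 lower (6 and 1 at an unadjusted p under 0.05). Its shares over all genes were 8.87% and 8.64%. TIMP3 rose with 0.57 (adjusted p = 0.0165) but not without siADNP replicate 2 (0.0902), siControl replicate 1 (0.0578) or siControl replicate 2 (0.0697). SEMA3F, a neuropilin ligand, rose with 0.46 (adjusted p = 0.00827) but not with the GC offset (0.0533) or without siControl replicate 3 (0.0682). SEMA3B rose with 0.60 (adjusted p = 0.0324) but not with the GC offset (0.101) or without siADNP replicate 1 (0.121), siADNP replicate 3 (0.0543), siControl replicate 2 (0.126) or siControl replicate 3 (0.112). SEMA3A was the member that fell, with -0.40 (adjusted p = 0.0161), but not with the GC offset (0.0617) or without siADNP replicate 3 (0.0818), siControl replicate 2 (0.0746) or siControl replicate 3 (0.103).

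Proteases that cut or release these ligands gave 5 rises, 0 falls (0 at an unadjusted p under 0.05 and 0 in DESeq2) and 3 that did not pass among 8 testable. The shares over all genes were 14.6% rises and 13.7% falls, with 8.64% lower in DESeq2. FURIN, the main convertase of growth factor precursors, was at 44.4 ± 1.61 CPM with siADNP and 45.7 ± 1.03 CPM with siControl (SD, n = 3 each; edgeR adjusted p = 0.699). The plasminogen activators PLAU and PLAT rose with log2 fold changes of 0.72 ± 0.09 and 0.71 ± 0.13 (edgeR adjusted p = 1.93e-07 and 5.54e-05), PLAU from 20.4, 24.6 and 19.7 CPM to 38.3, 34.4 and 34.7 CPM. The lysosomal protease CTSD rose with 0.32 ± 0.07 (edgeR adjusted p = 0.000412). The convertase PCSK5 rose with 0.43 (adjusted p = 0.0117), but not in DESeq2 (0.0814) or without siADNP replicate 2 (0.0592) or siControl replicate 1 (0.0755). CCBE1, a cofactor of VEGFC processing, rose with 0.95 (adjusted p = 0.0221) from 1.36 to 2.59 CPM, but not in DESeq2 (0.143) or without siADNP replicate 1 (0.0692), siADNP replicate 2 (0.136) or siControl replicate 2 (0.0920).

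**Figure D4:**
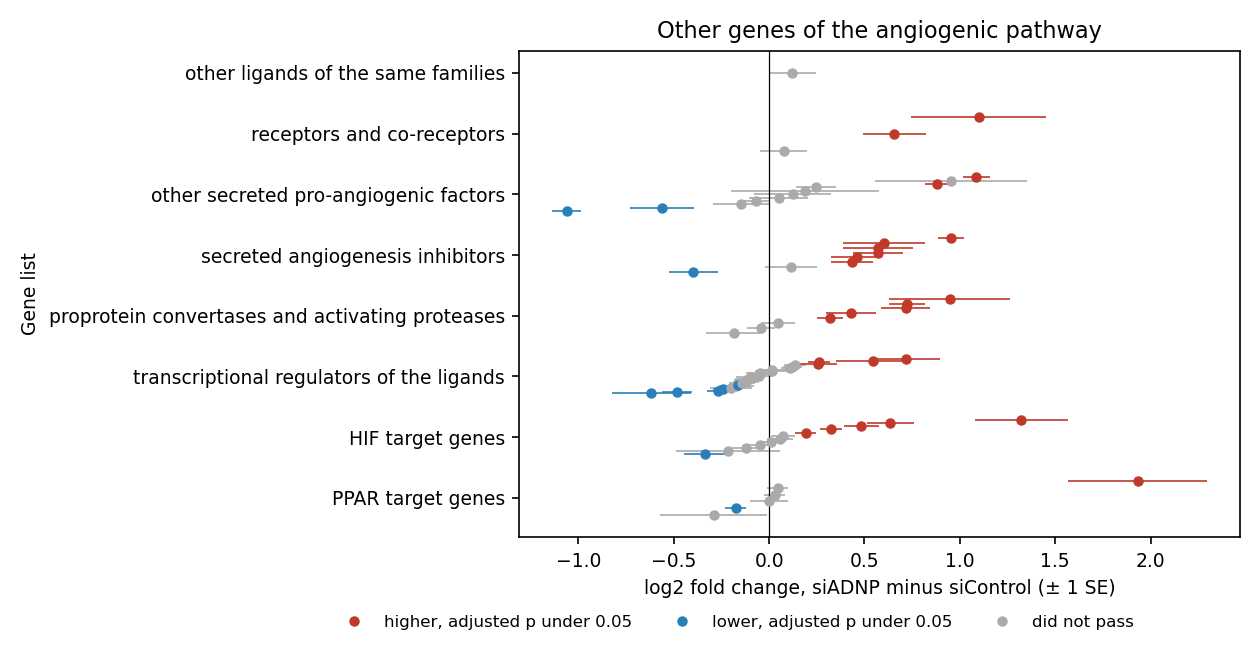
Log2 fold change (siADNP minus siControl, bars of 1 SE) of every testable gene in the 8 pathway lists, coloured by its edgeR call at an adjusted p under 0.05. The inhibitor list holds 6 red points and 1 blue point among 8, and the protease list 5 red points and no blue point among 8. Over all genes tested, 14.6% were called higher and 13.7% lower.

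Transcriptional regulators known to act on these ligands moved in both directions, with 4 rises, 5 falls and 15 that did not pass among 24 testable (median log2 fold change -0.07). Rises made up 14.6% and falls 13.7% of all genes tested. HIF1A, the oxygen-regulated subunit that drives VEGFA, had 509 ± 7.05 CPM with siADNP and 467 ± 27.6 CPM with siControl (SD, n = 3 each; edgeR adjusted p = 0.0530). VHL, which marks that subunit for degradation, fell from 45.4, 42.8 and 44.4 CPM to 32.2, 29.2 and 33.5 CPM (log2 fold change -0.48 ± 0.08, edgeR adjusted p = 1.14e-05). ARNT, the dimer partner, fell with -0.27 ± 0.06 and its paralogue ARNT2 rose with 0.72 ± 0.18 (edgeR adjusted p = 0.00108 and 0.00234). ZNF24, described as a repressor of VEGFA, fell with -0.24 ± 0.05, and the forkhead factor FOXC1 rose with 0.26 ± 0.06 (edgeR adjusted p = 0.000250 and 0.000672). HIF1AN, the hydroxylase that limits HIF activity, fell with -0.16 (adjusted p = 0.0112), but not without siADNP replicate 3 (0.0585) or siControl replicate 2 (0.0521). ETS1 fell with -0.62 (adjusted p = 0.0213), but not in DESeq2 (0.115) or without siADNP replicate 1 (0.147) or siControl replicate 3 (0.0817). The hydroxylase EGLN3 rose with 0.55 (adjusted p = 0.0327), but not in DESeq2 (0.157) or without siADNP replicate 2 (0.184), siControl replicate 1 (0.0542) or siControl replicate 3 (0.168). PPARA rose with 0.26 (adjusted p = 0.0460), but passed in 7 of 15 alternatives only, failing without siADNP replicate 1 (0.106), siADNP replicate 2 (0.119), siControl replicate 1 (0.210) or siControl replicate 3 (0.109).

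Of 12 testable HIF target genes other than the ligands, 5 rose, 1 fell and 6 did not pass (median log2 fold change 0.07). Among all genes tested, 14.6% rose and 13.7% fell. CA12, a carbonic anhydrase, rose from 1.99 ± 0.514 to 5.04 ± 0.459 CPM (SD, n = 3 each; log2 fold change 1.32 ± 0.25, edgeR adjusted p = 7.75e-05). NDRG1 and P4HA2 rose with log2 fold changes of 0.32 ± 0.06 and 0.48 ± 0.09 (edgeR adjusted p = 7.05e-05 and 0.000126). DDIT4, an inhibitor of mTORC1, rose with 0.64 ± 0.12 in edgeR (adjusted p = 0.000111) but not in DESeq2 (0.167), and its groups overlapped at 96.1 to 142 CPM and 55.8 to 103 CPM; its log2 fold change was 0.98 without siControl replicate 2. The glucose transporter SLC2A1 rose with 0.19 (adjusted p = 0.00569), but not with the GC offset and replicate block together (0.0602), or without siControl replicate 1 (0.0516) or siControl replicate 2 (0.0579). PDK1, a kinase that restrains pyruvate oxidation, fell with -0.33 (adjusted p = 0.0220), but not with the GC offset (0.0740), in DESeq2 (0.115) or without siADNP replicate 1 (0.0728), siADNP replicate 2 (0.0542) or siControl replicate 2 (0.222). The HIF targets BNIP3 and KDM3A had log2 fold changes of 0.06 and -0.05 and did not pass.

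PPAR targets, of which ANGPTL4 is one, had a median log2 fold change of 0.01 over 6 testable genes. PLIN2, a lipid droplet protein, and the carnitine transferase CPT1A had log2 fold changes of -0.00 ± 0.10 and 0.03 ± 0.06. CREB3L3, a membrane-bound transcription factor, rose from 0.737 ± 0.154 to 2.80 ± 0.895 CPM (SD, n = 3 each; edgeR adjusted p = 9.44e-05).

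The genes whose profile over the 6 libraries lay nearest to that of a member were sought among 10535 tested genes whose mean reached 5 CPM. Nearness was the root mean square distance between centred log2 levels, for the 3 members whose groups did not overlap and whose fold changes were largest. Nearest to ANGPT2 were the carboxypeptidase CPA4 (distance 0.29), ADNP itself (0.33) and SEMA3C (0.37). PDGFA lay nearest to ENOX2 (0.10), ZNF624 (0.10) and BTG2 (0.12), an antiproliferative p53 target. PGF lay nearest to PHTF1 (0.09), the lipid droplet hydrolase PNPLA3 (0.09) and ARHGAP44 (0.11). With 2 groups of 3 libraries, such distances reflect mostly the difference between the groups.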

How the data were processed

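The deposited main table gives unnormalized read counts for each gene symbol; STAR, HTSeq, DESeq2 and hg19 are named in the submitters' processing notes, while no source used here gives the annotation or strand setting. Reads assigned to genes made up 26.4%, 27.2% and 27.2% of the siADNP libraries and 28.3%, 27.7% and 28.2% of the siControl libraries. The no-feature line took 55.7%, 54.9% and 54.4% with siADNP and 53.5%, 54.3% and 53.7% with siControl. The bearing of these group differences on the results was not tested. Multiply aligned reads made up 17.4% to 17.9% and ambiguous ones 0.455% to 0.500%. Lines other than genes stayed out of library sizes. The second deposited table holds log2 values, variance-stabilized per the file name, used in 1 alternative only.

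The tests used edgeR 4.0.16 under R 4.3.3 (TMM scaling, filterByExpr with a minimum count of 10, glmQLFit, glmQLFTest, siADNP minus siControl, two-sided, Benjamini-Hochberg over 12489 genes), and adjusted p-values come from this fit unless DESeq2 1.42.0 or an alternative is named. Each SE was obtained from the fold change (log2) and the F statistic, as their ratio with F under a square root. The scripts were tested on simulated data. CPM values were computed here from the deposited counts and TMM scaling. GC content is that of the longest transcript in the full GENCODE set, and exon length that of merged exons in its basic set. Both are on a newer build, and GC was known for 96.7% of tested genes.

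Members and lists were chosen with earlier results of these data known. Named pathway genes are those called with a mean of at least 2 CPM, up to 6 per list by p, and the receptors. CCBE1, CREB3L3, SEMA3B, EGLN3, PPARA, ETS1, FGF2, FURIN, HIF1A, BNIP3, KDM3A, PLIN2, CPT1A, PDGFC and ANGPT1 were named after their values were seen. A result for 1 listed gene is not reported here, and counts over lists and all genes include it. Figures were drawn with matplotlib 3.10.9.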

Additional observations from a re-analysis of the deposited data

How the results depend on the processing

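A set of 15 alternatives was run, covering the test, the scaling, the filter, the deposited log2 values, GC content, pairing and each library left out. VEGFA and VEGFB lost their call in 7 of them each and PGF in 6; the members were picked on this contrast, so calls that held support nothing. No gene named as called changed direction. DESeq2 called 1100 genes higher (8.87%) and 1071 lower (8.64%), 16 and 5 of the pathway lists, and 0 and 2 of the members. The edgeR counts were 1824 and 1714 (14.6% and 13.7%), 25 and 10, and 3 and 2, and the cause of the differences was not tested. The GC offset left 1 member called higher, beside 13.4% of all genes. On the deposited log2 values, a variance-stabilized scale on which differences are smaller for these genes, ANGPT2 differed by -0.57 and PDGFA by -0.33. Leaving out 1 library gave 0 to 2 members called higher, 2 called lower, 20 to 24 pathway genes called higher and 7 to 9 lower. Of all genes, these fits called 11.6% to 13% higher and 10.3% to 12% lower. Same-numbered libraries of the 2 groups did not visibly deviate together (r = 0.0256, -0.0394 and -0.0290 across genes). Libraries with different numbers gave r from -0.0307 to 0.0619. Such values cannot show whether same-numbered cultures were handled together. A fit with the replicate block called 1694 genes higher (13.6%) and 1542 lower (12.3%), 24 and 10 of the pathway lists, and 3 and 2 members. With the GC offset as well, the replicate block left 0 members called higher (2 at an unadjusted p under 0.05), beside 12.3% of all genes. Of 35 called pathway genes, 16 lost their call in at least 1 alternative. Limits are set by depth: PGF, ANGPTL4 and PDGFB rest on 22 to 65 reads per library. With siADNP, ANGPT2 rests on 31 to 54 reads and PDGFA on 49 to 63.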
